A study of Homo sapiens with 136 samples.

Results

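The endoplasmic reticulum folds proteins bound for the cell surface and the outside, and its folding capacity is kept in balance with its load. The 10 genes described here, HSPA5, HSP90B1, CALR, DNAJB9, SDF2L1, PDIA4, CRELD2, MANF, HERPUD1 and XBP1, code for chaperones of this compartment, their helpers and a transcription factor that induces many of them. They were taken by symbol from the authors' count table, where all 10 were found among 25435 gene symbols. All 10 passed the filter on low counts in both cell lines, which left 12761 genes to test for AsPC-1 cells and 12627 for PANC-1 cells.

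AsPC-1 and PANC-1 are established human lines derived from ductal adenocarcinoma of the pancreas. Their RNA was sequenced by PLATE-Seq, a method that makes barcoded RNA libraries from cells lysed in multi-well plates. Cells were grown for 24 h and then treated for 24 h. Every library received an autophagy inhibitor: either Compound 19, an inhibitor of the lipid kinase Vps34 that starts the autophagosome, or hydroxychloroquine, which blocks breakdown in the lysosome. To it was added 1 of 4 ERK inhibitors (SCH772984, ulixertinib, AZD0364 or ravoxertinib), 1 of 5 MEK inhibitors (trametinib, cobimetinib, binimetinib, selumetinib or refametinib), 1 of 5 RAF inhibitors (sorafenib, dabrafenib, RAF709, PLX8394 or GDC-0879), or nothing. Each of the 28 combinations per line had 2 libraries, and each autophagy inhibitor alone had 6 libraries per line. The titles place the libraries of each line in 2 sets, A and B. Each set held 1 library of every combination and 3 of every autophagy inhibitor alone. Sets A and B of AsPC-1 are not those of PANC-1, so line and set cannot be told apart. Untreated cells and kinase inhibitors without an autophagy inhibitor were not analysed here, so both sides of each comparison carry an autophagy inhibitor. Each drug was dosed to leave 80% of cells viable after 48 h on its own. The concentrations themselves are not stated in the labels, and they need not match between drugs or lines.

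When unfolded proteins gather, the chaperone HSPA5 (BiP) is drawn away from 3 sensors in the membrane of the reticulum, ATF6, IRE1 and PERK. ATF6 is cut to release a transcription factor, IRE1 splices the XBP1 message so that it codes for an active transcription factor, and PERK slows translation while ATF4 is made. ATF6 and spliced XBP1 act on short promoter elements, the endoplasmic reticulum stress elements, to raise chaperones and degradation factors. ATF4 raises genes of amino acid supply and of stress. The exocrine pancreas, which secretes much protein, relies strongly on this system.

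The promoter elements that tie these genes together are shown for the 7 members in whose RefSeq promoter windows they were found. The windows run from 250 bases before to 50 bases after each start site on GRCh38.p14. All 10 members matched a window, and PDIA4 and XBP1 had 2. Capitals mark a complete match, in either orientation, to ERSE (CCAAT, then 9 positions of N, then CCACG) or ERSE-II (ATTGG, N, then CCACG), where N is any base. Each line is written 5′ to 3′ on the gene's own strand with 20 bases on either side, and HSP90B1 holds a pair of matches.
HSPA5: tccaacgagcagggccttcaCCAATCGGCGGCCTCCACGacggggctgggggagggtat
HSP90B1: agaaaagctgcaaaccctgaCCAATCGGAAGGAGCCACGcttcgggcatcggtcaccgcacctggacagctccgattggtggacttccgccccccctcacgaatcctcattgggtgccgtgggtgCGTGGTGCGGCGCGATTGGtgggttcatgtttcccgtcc
SDF2L1: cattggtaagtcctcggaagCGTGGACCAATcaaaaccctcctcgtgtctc
HERPUD1: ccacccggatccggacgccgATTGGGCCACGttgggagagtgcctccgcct
XBP1: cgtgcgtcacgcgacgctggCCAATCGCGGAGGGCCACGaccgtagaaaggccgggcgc
CALR: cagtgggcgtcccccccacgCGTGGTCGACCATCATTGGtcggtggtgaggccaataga
CRELD2: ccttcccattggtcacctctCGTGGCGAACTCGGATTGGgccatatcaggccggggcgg
HSPA5 (chr9:125241371-125241429, minus strand), HSP90B1 (chr12:103930196-103930359, plus), XBP1 (chr22:28800583-28800641, minus), CALR (chr19:12938364-12938422, plus) and CRELD2 (chr22:49918534-49918592, plus) held ERSE. HERPUD1 (chr16:56932005-56932055, plus) and SDF2L1 (chr22:21642094-21642144, plus) held ERSE-II. The 5 members with ERSE compare with 0.0769% of 35116 promoter windows, and the 2 with ERSE-II compare with 0.0541%. Either element was found for 7 of 10 members and for 0.161% of 27305 genes. These elements are textbook features of several of the members, so the count describes the group and is not a result of the expression data. No complete match was found in the windows of DNAJB9, PDIA4 and MANF. The shorter XBP1-type element TGACGTGG, present in 0.729% of windows, and the CRE-like letters TGACGTNA, present in 3.01%, were in no member's window on either strand.

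**Figure D1:**
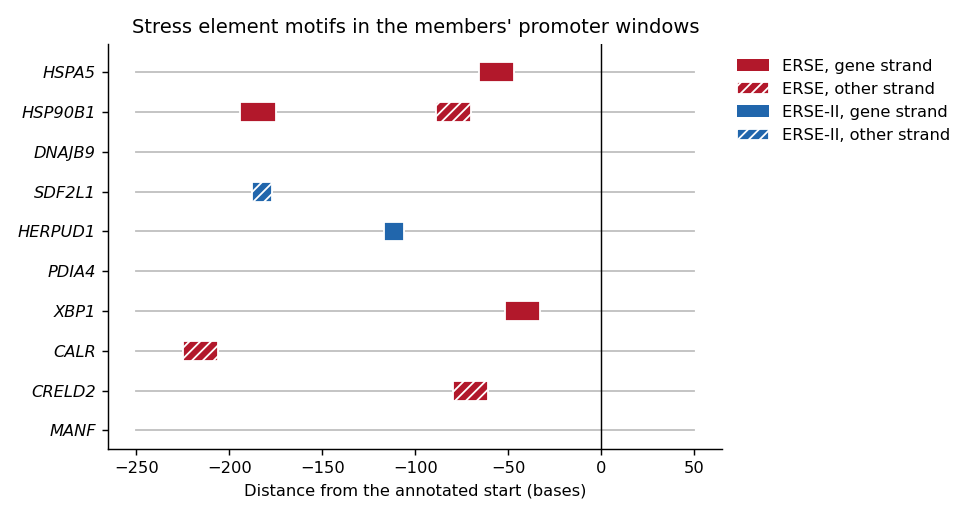
Position of ERSE and ERSE-II matches in the RefSeq promoter windows of the 10 members, as distance in bases from the start site (x axis), 1 row per gene. Matches lie between 34 and 225 bases before the start, and the windows of DNAJB9, PDIA4 and MANF hold none.

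Depth per library was between 1419228 and 5871860 counts, the medians being 3351744.5 for AsPC-1 libraries and 3636445.5 for PANC-1 libraries. Levels below are counts scaled to the library total (CPM), and folds are log2 fold changes ± standard error from edgeR, and a gene is called at a Benjamini-Hochberg adjusted p under 0.05 over all genes of the comparison. Nothing in the labels says that libraries of a group came from separate cultures, so p values measure the spread between these libraries, which may be technical. SPRY4, a feedback inhibitor whose expression depends on ERK signalling, was low with ERK and MEK inhibitors: its level ranged from 1.60 to 14.9 CPM with ERK inhibitors and from 1.702 to 9.19 CPM with MEK inhibitors in PANC-1, against 29.9 to 61.9 CPM with an autophagy inhibitor alone. In AsPC-1 it had 2.54 to 20.5 CPM with ERK inhibitors and 7.81 to 37.6 CPM with MEK inhibitors, against 62.8 to 199 CPM alone. RAF inhibitors gave 1.63 to 47.6 CPM in PANC-1 and 18.8 to 262 CPM in AsPC-1, overlapping the alone libraries in both lines. DUSP6, the ERK phosphatase, likewise had 0 to 4.46 CPM with ERK inhibitors and 0 to 4.37 CPM with MEK inhibitors in PANC-1, against 11.9 to 21.8 CPM alone. In AsPC-1 the epithelial markers summed to 2557 to 7723 CPM, and in PANC-1 to 336 to 848 CPM, where CDH1 and EPCAM had medians of 1.38 and 9.17 CPM. Summed immune markers reached at most 6.45 CPM and endothelial markers at most 2.97 CPM. Of the fibroblast markers, COL1A2 and PDGFRB had a median of 0 CPM, whereas LUM had 43.1 to 275 CPM in AsPC-1 and COL1A1 had 23.4 to 117 CPM in PANC-1. LUM rose in AsPC-1 with MEK (1.27), ERK (1.43) and RAF inhibitors (0.45), and COL1A1 rose in PANC-1 with MEK (0.59) and ERK inhibitors (0.48); their part in the results below was not tested.

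In PANC-1, HSPA5 and HERPUD1 rose when some of the ERK or MEK inhibitors were added to an autophagy inhibitor. Most of the other chaperones did not pass the test. Over the 28 combinations and 10 members of that line, 10 of 280 values rose and 2 fell, against 1.17% higher and 1.3% lower among all 353556 values tested. All 10 rises were HSPA5 or HERPUD1, with ulixertinib, trametinib, SCH772984 or binimetinib, and both falls were MANF. DESeq2 called 13 of the 280, and 38 had an unadjusted p under 0.05. In AsPC-1, 2 of 280 values rose and none fell by edgeR, against 6.32% called in either direction among 357308 values; 27 had an unadjusted p under 0.05 and DESeq2 called 3. The share in AsPC-1 was thus below that of all genes. Counts do not tell fewer cells from less RNA per cell in bulk libraries, and CPM are relative to the rest of each library.

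**Figure D2:**
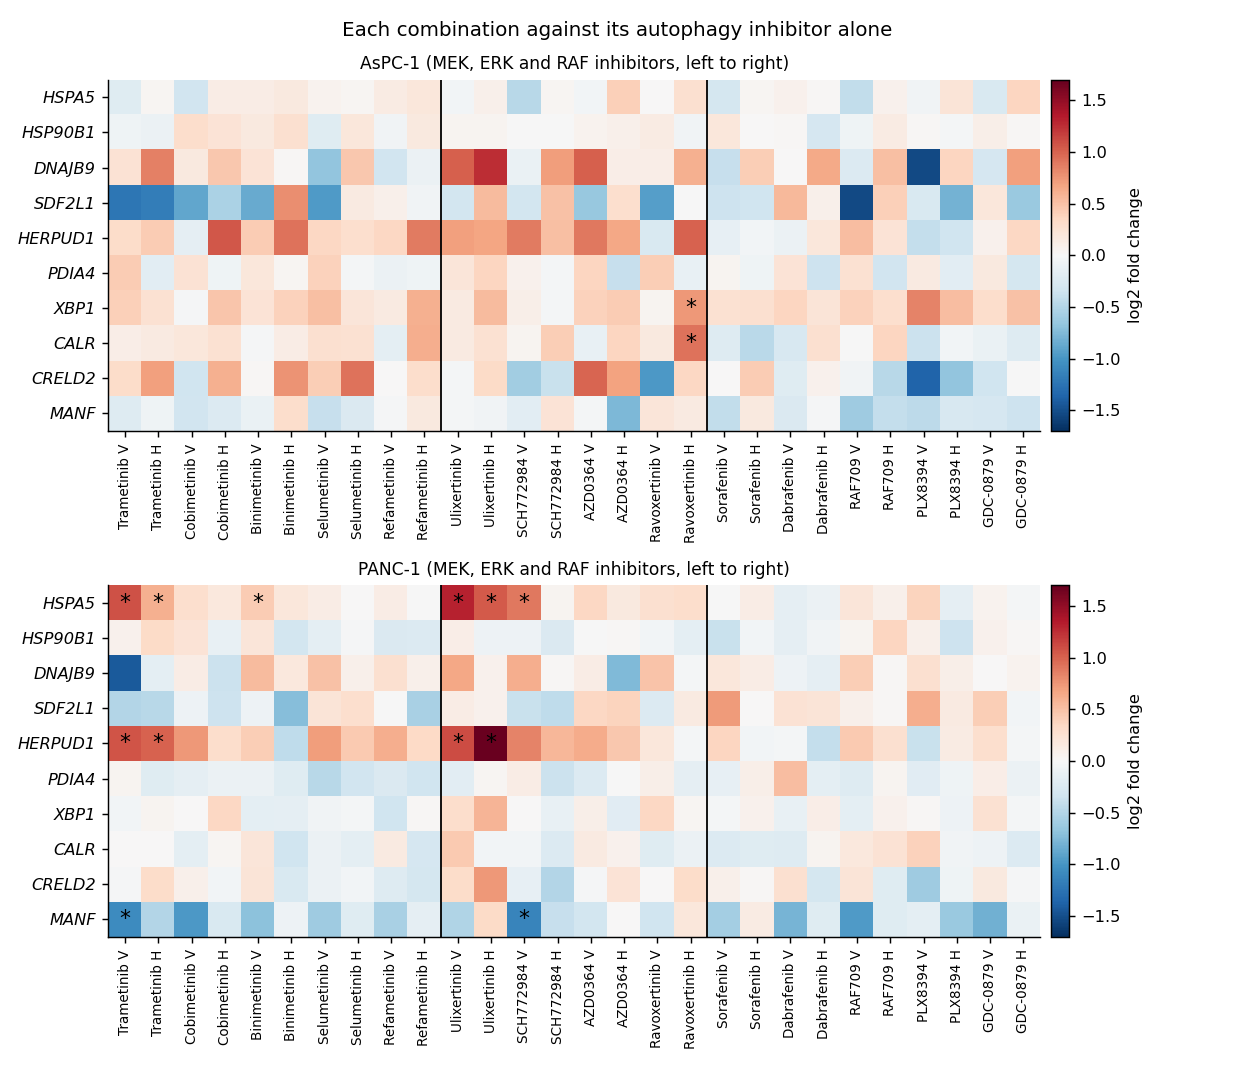
Log2 fold change (colour) of each member (rows) in each of the 28 combinations (columns, with V for the Vps34 inhibitor and H for hydroxychloroquine) against the same autophagy inhibitor alone, for AsPC-1 above and PANC-1 below, with called values marked by an asterisk. In PANC-1 the HSPA5 row reaches 1.31 and the HERPUD1 row 1.68, both with ulixertinib, and in AsPC-1 the called values are XBP1 and CALR with ravoxertinib and hydroxychloroquine.

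HSPA5, or BiP, is the HSP70 chaperone of the reticulum and the gatekeeper of its stress sensors. In PANC-1 it had 722 and 908 CPM with ulixertinib and the Vps34 inhibitor, against 288 to 342 CPM (median 330) with the Vps34 inhibitor alone. Both combination libraries lay above all 6 controls, and the rise was 1.31 ± 0.12 (edgeR, adjusted p = 2.56e-11, with 2.87% of all genes higher). With hydroxychloroquine, ulixertinib gave 613 and 555 CPM, against 259 to 302 CPM (median 277) alone, a rise of 1.04 ± 0.12 (edgeR, adjusted p = 3.79e-08, 3.28% of genes higher). Ulixertinib is an ERK inhibitor, and it had the highest HSPA5 level of the 14 drugs beside either autophagy inhibitor in this line.

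Trametinib, a MEK inhibitor, gave 711 and 716 CPM of HSPA5 with the Vps34 inhibitor in PANC-1, above the same controls, and a rise of 1.08 ± 0.12 (edgeR, adjusted p = 1.04e-08, 2.49% of genes higher). With hydroxychloroquine it gave 395 and 467 CPM, also above every control, and a rise of 0.61 ± 0.12 (edgeR, adjusted p = 0.00084, 3.0% of genes higher). Without the set B library of this last combination HSPA5 differed by 0.50 ± 0.17 and was not called (adjusted p = 0.102). The ERK inhibitor SCH772984 gave 532 and 669 CPM with the Vps34 inhibitor, a rise of 0.90 ± 0.12 (edgeR, adjusted p = 1.64e-06, 1.34% of genes higher). With hydroxychloroquine SCH772984 gave 299.7 and 294 CPM, within the range of its controls, and a difference of 0.04 ± 0.13. The difference between these effects of SCH772984 was not tested by itself.

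Binimetinib, another MEK inhibitor, gave 445 and 423 CPM of HSPA5 with the Vps34 inhibitor in PANC-1 and a rise of 0.43 ± 0.13 (edgeR, adjusted p = 0.0432, 1.31% of genes higher). That call was lost without either combination library (0.33 with an adjusted p of 0.613 without the set A library and 0.54 with an adjusted p of 0.0879 without the set B library). It was also lost without any of 6 alone libraries, namely Vps34 inhibitor replicates 2, 3, 4, 5 and 6 and hydroxychloroquine replicate 6, where it lay between 0.41 and 0.45 with adjusted p from 0.0501 to 0.0843. In PLX8394 with the Vps34 inhibitor the libraries disagreed, with 305 CPM in set A and 534 CPM in set B, and the value was not called. Over the 28 combinations HSPA5 was positive in 22, with a median of 0.17 and a range from −0.16 to 1.31. Combinations with the same autophagy inhibitor share its 6 alone libraries, so such counts of signs are not separate observations.

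By class, HSPA5 in PANC-1 averaged 473 ± 180 CPM with ERK inhibitors (SD, n = 16), 388 ± 126 CPM with MEK inhibitors (n = 20) and 314 ± 70.4 CPM with RAF inhibitors (n = 20), against 299.7 ± 28.97 CPM alone (n = 12). With the Vps34 inhibitor, ERK inhibitors gave 367 to 908 CPM (median 505), all above the 342 CPM of the highest control library. With hydroxychloroquine they gave 294 to 613 CPM (median 322), and the lowest libraries overlapped the controls. The class rise was 0.55 ± 0.06 for ERK inhibitors (edgeR, adjusted p = 1.6e-09) and 0.30 ± 0.06 for MEK inhibitors (adjusted p = 9.61e-05). These tests treat the drugs as fixed, and the libraries of a class share drugs. Without trametinib the MEK class differed by 0.17 ± 0.06 and was not called (adjusted p = 0.0542), whereas without ulixertinib the ERK class still rose by 0.34 ± 0.06. Within set A and within set B the MEK class value was 0.31 and 0.36 with adjusted p of 0.276 and 0.228.

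**Figure D3:**
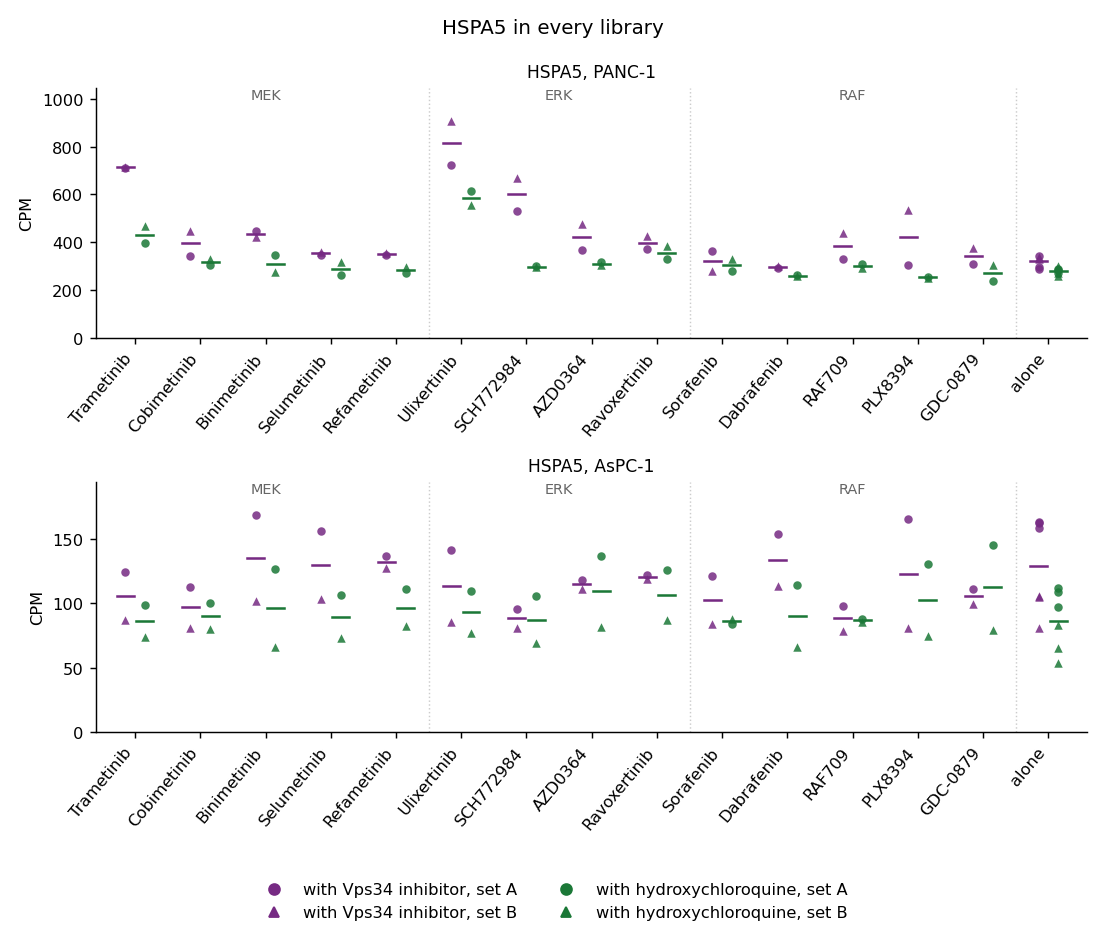
HSPA5 level in CPM (y axis) in each library, by kinase inhibitor (x axis), with PANC-1 above and AsPC-1 below on separate scales. Points are libraries, their colour gives the autophagy inhibitor and their shape the library set, and bars are means; in PANC-1 the ulixertinib libraries lie between 555 and 908 CPM and the trametinib libraries between 395 and 716 CPM, above the alone libraries at 259 to 342 CPM.

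Set against the mean of the other drugs of its own class, each drug was tested over both autophagy inhibitors, although the drugs' concentrations may differ. In PANC-1, 6 of 140 member values passed. Ulixertinib exceeded the other ERK inhibitors by 0.83 ± 0.09 for HSPA5 (edgeR, adjusted p = 6.27e-10) and by 0.95 ± 0.18 for HERPUD1 (adjusted p = 1.48e-04), in a comparison with 3.54% of genes higher. Trametinib exceeded the other MEK inhibitors by 0.68 ± 0.08 for HSPA5 (adjusted p = 1.38e-07) and by 0.64 ± 0.18 for HERPUD1 (adjusted p = 0.0394), with 1.16% of genes higher. Ravoxertinib was below the other ERK inhibitors by −0.35 ± 0.09 for HSPA5 (adjusted p = 0.0229) and by −0.80 ± 0.20 for HERPUD1 (adjusted p = 0.0117), with 0.602% of genes lower. Within a class the drugs thus differed for the same pair of genes. AZD0364 differed from the other ERK inhibitors by −0.38 for HSPA5, which edgeR did not call (adjusted p = 0.0544) and DESeq2 did. These comparisons share drugs, since each drug is part of the mean the others are set against. The HSPA5 values of ulixertinib and trametinib were called with any 1 of the drug's own 4 libraries left out, at 0.78 to 0.88 and at 0.63 to 0.73. HERPUD1 with ulixertinib lost the call without the set A hydroxychloroquine library (0.53, adjusted p = 0.113). HERPUD1 with trametinib and HSPA5 with ravoxertinib lost it without any 1 of their 4 libraries, at 0.53 to 0.74 (adjusted p from 0.0600 to 0.273) and at −0.37 to −0.34 (0.0704 to 0.163). HERPUD1 with ravoxertinib lost it without any of 3, namely both Vps34 inhibitor libraries and the set A hydroxychloroquine library (−0.80 to −0.66, adjusted p from 0.0657 to 0.135). In AsPC-1 edgeR called 0 of 140 such values (smallest adjusted p = 0.239; 7 at an unadjusted p under 0.05; DESeq2 0), with 1.55% of all values called in either direction.

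In AsPC-1, HSPA5 pooled over both autophagy inhibitors stood close to the level of its controls under every class. It averaged 104 ± 22.4 CPM with ERK inhibitors (SD, n = 16), 106 ± 28.04 CPM with MEK inhibitors (n = 20) and 103 ± 28.2 CPM with RAF inhibitors (n = 20), against 108 ± 36.9 CPM alone (n = 12). The ERK class difference was 0.03 ± 0.08 and the MEK class difference 0.03 on the log2 scale. Beside the Vps34 inhibitor the ERK, MEK and RAF class means were 109, 120 and 111 CPM, below the 130 CPM alone. Beside hydroxychloroquine they were 99.2, 91.8 and 95.7 CPM, above the 86.7 CPM alone. Single combinations ran from −0.47 to 0.40, and none was called for HSPA5. The spread among libraries followed the sets: set A was higher than set B in 27 of 28 combinations. Tested in 1 fit of both lines, the response to ERK inhibitors differed, AsPC-1 minus PANC-1, by −0.52 ± 0.10 (edgeR, adjusted p = 7.36e-05), in a comparison with 7.49% of genes lower. For MEK inhibitors the same difference was −0.27 ± 0.10 and missed the threshold (adjusted p = 0.0543), and no member was called there (4 at an unadjusted p under 0.05; DESeq2 0) or for RAF inhibitors (1; DESeq2 0), where 11.4% and 1.68% of all genes were called in either direction.

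The autophagy inhibitors themselves were compared without a kinase inhibitor. In AsPC-1, HSPA5 had 81.0 to 164 CPM (median 132) with the Vps34 inhibitor, against 53.2 to 112 CPM (median 90.3) with hydroxychloroquine. In set A the groups did not overlap, at 159 to 164 CPM against 97.4 to 112 CPM; in set B they did, at 81.0 to 106 CPM against 53.2 to 83.1 CPM. HSPA5 was higher with the Vps34 inhibitor by 0.64 ± 0.12 (edgeR, adjusted p = 2.65e-04), with 3.21% of genes higher. Within set A alone the value was 0.67 (adjusted p = 0.103) and within set B 0.60 (adjusted p = 0.202), neither called. It was the 1 member called by edgeR, although all 10 were positive, with a median of 0.49 against 0.01 over all genes. By edgeR 5 had an unadjusted p under 0.05, and DESeq2 called CALR, HSPA5 and SDF2L1. Single libraries stood apart in the Vps34 inhibitor group. CALR had 644 CPM in replicate 1, with the others at 188 to 347 CPM. HERPUD1 had 37.3 CPM in replicate 3, with the others at 8.71 to 14.3 CPM. Median CALR was 237 CPM with the Vps34 inhibitor and 210 CPM with hydroxychloroquine, and median HERPUD1 12.4 and 11.4 CPM. In PANC-1, HSPA5 had 288 to 342 CPM with the Vps34 inhibitor, against 259 to 302 CPM with hydroxychloroquine, a difference of 0.19 ± 0.09 (adjusted p = 0.322). No member passed by edgeR in PANC-1 (1 at an unadjusted p under 0.05; DESeq2 0), where 2.49% of genes did in either direction.

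SDF2L1, a partner of HSPA5 that keeps clients from clumping, showed the largest difference between the lines in this comparison. In AsPC-1 it had 2.58 to 6.04 CPM (median 5.62) with the Vps34 inhibitor, against 0.474 to 4.10 CPM (median 1.79) with hydroxychloroquine. The lowest of these libraries held 2 counts, so the values are coarse. In PANC-1 the levels were 7.46 to 15.9 CPM (median 11.1) with the Vps34 inhibitor, against 7.79 to 19.1 CPM (median 13.1) with hydroxychloroquine. The AsPC-1 difference was 1.52 ± 0.54 and was not called (edgeR, adjusted p = 0.0852). The difference between the lines, AsPC-1 minus PANC-1, was 1.73 ± 0.49 (edgeR, adjusted p = 0.0331), with 1.35% of genes higher. It was not called without the library set as a block (1.66, adjusted p = 0.106).

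HERPUD1 codes for a membrane protein that helps gather the machinery for degrading misfolded proteins. In PANC-1 it had 37.3 and 17.3 CPM with ulixertinib and hydroxychloroquine, against 7.20 to 11.5 CPM (median 8.26) with hydroxychloroquine alone. Both libraries exceeded all controls but differed from each other, and the rise was 1.68 ± 0.24 (edgeR, adjusted p = 3.0e-06). Without the set A library it was 0.83 and not called (adjusted p = 0.190). With the Vps34 inhibitor, ulixertinib gave 18.0 and 16.4 CPM and trametinib 14.5 and 20.8 CPM, against 3.75 to 11.9 CPM (median 8.06) alone. The groups did not overlap, and the rises were 1.11 ± 0.26 (edgeR, adjusted p = 0.00295) and 1.07 ± 0.27 (adjusted p = 0.0084). Trametinib with hydroxychloroquine gave 13.9 and 21.5 CPM and a rise of 1.00 ± 0.25 (edgeR, adjusted p = 0.00859). Each of these 3 calls was lost without at least 1 of its combination libraries: ulixertinib with the Vps34 inhibitor was 0.86 without the set A library (adjusted p = 0.230), trametinib with the Vps34 inhibitor 1.18 and 0.94 without the set A and the set B library (0.0608 and 0.153), and trametinib with hydroxychloroquine 0.77 without the set B library (0.296).

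By class, HERPUD1 rose in both lines. In PANC-1 it averaged 14.4 ± 6.97 CPM with ERK inhibitors (SD, n = 16) and 12.5 ± 3.91 CPM with MEK inhibitors (n = 20), against 8.31 ± 2.28 CPM alone (n = 12). The rises were 0.68 ± 0.13 (edgeR, adjusted p = 1.03e-04) and 0.52 ± 0.13 (adjusted p = 0.00179), and both were called with any single drug left out, at 0.44 for the ERK class without ulixertinib (adjusted p = 0.0282) and 0.39 for the MEK class without trametinib (adjusted p = 0.0338). In AsPC-1 it averaged 21.3 ± 6.87 CPM with ERK inhibitors (SD, n = 16) and 18.9 ± 6.13 CPM with MEK inhibitors (n = 20), against 13.9 ± 7.88 CPM alone (n = 12). There the rises were 0.63 ± 0.19 (edgeR, adjusted p = 0.00762) and 0.49 ± 0.18 (adjusted p = 0.0383). The line difference in the MEK response was −0.03 ± 0.23. The control spread in AsPC-1 was widened by 1 library, Vps34 inhibitor alone replicate 3, with 37.3 CPM among others at 8.71 to 14.3 CPM.

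These calls differed in firmness. With binimetinib or refametinib left out of the class, HERPUD1 lost the AsPC-1 MEK call (0.44 and 0.45, edgeR, adjusted p = 0.0841 and 0.0733). The AsPC-1 MEK call was lost without any of 9 of the 12 alone libraries, all but Vps34 inhibitor replicate 3 and hydroxychloroquine replicates 2 and 4, with values of 0.44 to 0.47 and adjusted p from 0.0599 to 0.0770. Within the sets HERPUD1 was 0.30 in set A (adjusted p = 0.423) and 0.78 in set B (adjusted p = 0.0327) for that class, and 0.56 (adjusted p = 0.110) and 0.90 (adjusted p = 0.0144) for ERK inhibitors in AsPC-1. In PANC-1 HERPUD1 was 1.04 (adjusted p = 0.0268) in set A and 0.52 (adjusted p = 0.151) in set B for ERK inhibitors, and 0.69 (adjusted p = 0.152) and 0.48 (adjusted p = 0.131) for MEK inhibitors. Its direction was positive in all 8 of these. They are parts of the libraries already called, and ERK and MEK values of a set share alone libraries, so the signs add no separate support.

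**Figure D4:**
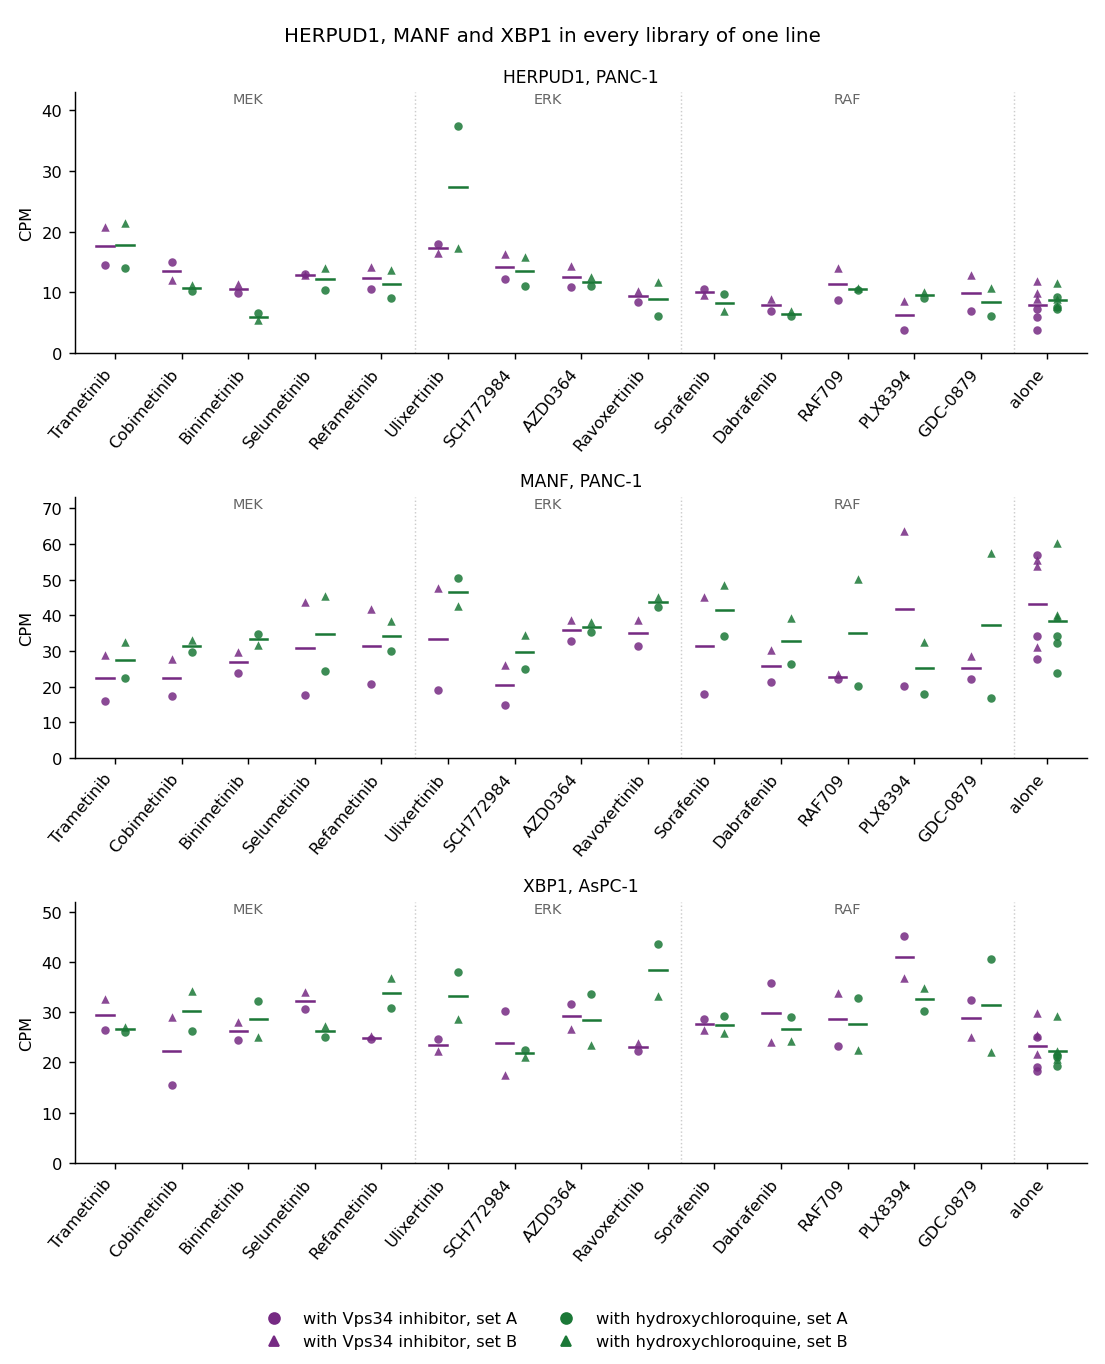
HERPUD1 and MANF levels in PANC-1 and XBP1 levels in AsPC-1, in CPM (y axis), by kinase inhibitor (x axis). Points are libraries, their colour gives the autophagy inhibitor and their shape the library set, and bars are means; HERPUD1 reaches 37.3 CPM with ulixertinib and at most 11.9 CPM alone, MANF is lowest at 14.9 CPM with SCH772984, and XBP1 reaches 45.1 CPM with PLX8394, against at most 29.8 CPM alone.

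MANF is a small protein that binds HSPA5 in the reticulum and is also secreted as a trophic factor. In PANC-1 it had 14.9 and 26.2 CPM with SCH772984 and the Vps34 inhibitor and 16.1 and 28.8 CPM with trametinib and the Vps34 inhibitor, against 27.8 to 56.8 CPM (median 44.1) alone. In each pair the set A library lay below every control, and the trametinib library of set B lay inside their range. The falls were −1.12 ± 0.31 (edgeR, adjusted p = 0.0335, with 1.66% of genes lower) and −1.07 ± 0.31 (adjusted p = 0.0321, with 2.89% of genes lower). Both calls were lost without Vps34 inhibitor alone replicate 1 (−0.94 and −0.88, adjusted p = 0.0766 and 0.0765), and without either of their own combination libraries (−1.20 to −0.96, adjusted p from 0.135 to 0.321). Set A was below set B in 26 of 28 combinations, and 24 of the 28 folds were negative, with a median of −0.37. These folds share their alone libraries.

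As a class, MEK inhibitors lowered MANF in PANC-1 to 29.5 ± 8.57 CPM (SD, n = 20), against 40.8 ± 12.6 CPM alone (n = 12), a fall of −0.51 ± 0.13 (edgeR, adjusted p = 0.00266). Within set A the fall was −0.58 (adjusted p = 0.0440), and within set B MANF differed by −0.42 (adjusted p = 0.147). For RAF inhibitors the value was −0.43 ± 0.13 (adjusted p = 0.110) and for ERK inhibitors −0.27 (adjusted p = 0.191). HSPA5 rose and MANF, its binding partner, fell in the same MEK comparison. Of the members, 2 rose and 1 fell there, with 7.9% of genes higher and 10.6% lower; with ERK inhibitors 2 rose and none fell, with 5.45% of genes higher. RAF inhibitors called no member in PANC-1 by edgeR (1 at an unadjusted p under 0.05, DESeq2 0). Of all genes 68, or 0.539%, were called there in either direction. With RAF709 left out of the class, 0 genes were higher and 5 lower, so the calls of this class rested largely on RAF709. Without sorafenib MANF fell by −0.49 (edgeR, adjusted p = 0.0469).

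In AsPC-1 MANF was negative in 22 of 28 combinations, which share their alone libraries, and none was called. Its RAF class value was −0.29 (adjusted p = 0.102), with 23.0 ± 4.70 CPM (SD, n = 20), against 28.2 ± 6.499 CPM alone (n = 12). CRELD2, a secreted reticulum protein that acts with isomerases and, like MANF, is a known stress target, was called by edgeR in no comparison of all libraries in either line. DESeq2 called it for ulixertinib against the other ERK inhibitors in PANC-1, and edgeR did so there without the set B library of ulixertinib with hydroxychloroquine (0.67, adjusted p = 0.0480). CRELD2 had 4.28 ± 2.62 CPM with ERK inhibitors in AsPC-1 (SD, n = 16), against 4.03 ± 1.98 CPM alone (n = 12), and 12.9 ± 4.20 CPM in PANC-1 (n = 16), against 11.3 ± 3.29 CPM alone (n = 12). Its values over the combinations ran from −1.36 to 0.99 in AsPC-1 and from −0.60 to 0.74 in PANC-1, and in AsPC-1 some libraries held only 2 counts.

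XBP1 codes for the transcription factor that IRE1 activates by splicing its message. Gene-level counts add spliced and unspliced message and say nothing of the splicing. In AsPC-1 it averaged 27.7 ± 6.93 CPM with ERK inhibitors (SD, n = 16), 28.1 ± 4.72 CPM with MEK inhibitors (n = 20) and 30.1 ± 6.33 CPM with RAF inhibitors (n = 20), against 22.8 ± 3.79 CPM alone (n = 12). All 3 classes rose in the test, by 0.30 ± 0.12 (edgeR, adjusted p = 0.0435), 0.32 ± 0.11 (adjusted p = 0.0222) and 0.40 ± 0.11 (adjusted p = 0.0130), although the libraries overlapped. It was positive in 26 of 28 combinations of this line, with a median of 0.33. These combinations share their alone libraries, so the signs are not separate observations. In PANC-1 XBP1 was called in no class, and 15 of 28 values were positive, with a median of 0.01. No difference between the lines was called for XBP1; for MEK inhibitors, AsPC-1 minus PANC-1, it was 0.36 ± 0.15 (adjusted p = 0.127).

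The ERK and RAF class values of XBP1 in AsPC-1 were larger in library set A. There the ERK and RAF class values were 0.61 (edgeR, adjusted p = 0.00418) and 0.66 (adjusted p = 0.0276), and in set B they were 0.05 (adjusted p = 0.907) and 0.17 (adjusted p = 0.796). The controls differed by set as well. With the Vps34 inhibitor alone XBP1 had 18.3 to 25.1 CPM in set A and 21.8 to 29.8 CPM in set B. With hydroxychloroquine alone it had 19.4 to 21.5 CPM and 20.6 to 29.2 CPM. Among the 28 combinations set A was higher in 16. The part of the controls in this was not tested. The MEK class value was 0.36 in set A and 0.33 in set B, neither called (adjusted p = 0.0920 and 0.194). The ERK call was lost without any of 7 alone libraries, hydroxychloroquine replicates 1, 3, 5 and 6 and Vps34 inhibitor replicates 1, 2 and 4, with XBP1 at 0.26 to 0.30 and adjusted p from 0.0526 to 0.0889, and without the set A library of ravoxertinib with hydroxychloroquine (0.28, adjusted p = 0.0665). The MEK call was lost without Vps34 inhibitor replicate 1 (0.29, adjusted p = 0.0507). With AZD0364, ravoxertinib or ulixertinib left out of the class, XBP1 lost the ERK call (0.26, 0.26 and 0.28, edgeR, adjusted p = 0.115, 0.101 and 0.0860). Without PLX8394 the RAF class value was 0.33 and not called (adjusted p = 0.0555). Among single combinations, ravoxertinib with hydroxychloroquine raised XBP1 by 0.74 ± 0.23 (edgeR, adjusted p = 0.0361, 4.16% of genes higher), with 43.6 and 33.2 CPM against 19.4 to 29.2 CPM (median 21.3) alone. That call was lost without the set A or the set B combination library (0.55 and 0.89, adjusted p = 0.418 and 0.0827) or any of hydroxychloroquine replicates 1, 2, 3 and 5 (0.70 to 0.73, adjusted p from 0.0516 to 0.0665).

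CALR, or calreticulin, is a lectin chaperone that holds sugar-bearing proteins and calcium. In AsPC-1 ravoxertinib with hydroxychloroquine gave 295 CPM in set A and 487 CPM in set B, against 130 to 314 CPM (median 210) alone. The set A library lay inside the range of the controls and the set B library above it. The rise was 0.92 ± 0.26 (edgeR, adjusted p = 0.0200) and was not called without the set B library, where it was 0.17 ± 0.32 (adjusted p = 0.917). Without the set A library it was 1.41 (adjusted p = 0.00188). As a class, ERK inhibitors gave 0.28 for CALR in AsPC-1 (adjusted p = 0.102), called by DESeq2 and not by edgeR, and by edgeR without that set A library (0.35, adjusted p = 0.0227). In PANC-1 CALR averaged 508 ± 123 CPM with ERK inhibitors (SD, n = 16), against 491 ± 181 CPM alone (n = 12), and passed nowhere.

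HSP90B1 (GRP94), the HSP90 chaperone of the reticulum, was called in no comparison in either line. It averaged 393 ± 52.8 CPM with ERK inhibitors in AsPC-1 (SD, n = 16), against 395 ± 96.7 CPM alone (n = 12), and 303 ± 90.6 CPM in PANC-1 (n = 16), against 306 ± 88.7 CPM alone (n = 12). Its combination values lay between −0.28 and 0.30 in AsPC-1 and between −0.38 and 0.36 in PANC-1. Closest to a call was the comparison of the Vps34 inhibitor with hydroxychloroquine in AsPC-1, 0.35 ± 0.11 (edgeR, adjusted p = 0.0501). DNAJB9 (ERdj4), a J-domain helper of HSPA5 that also restrains IRE1, rose with ERK inhibitors in AsPC-1 to 7.99 ± 3.73 CPM (SD, n = 16), against 5.29 ± 2.45 CPM alone (n = 12), by 0.59 ± 0.23 (edgeR, adjusted p = 0.0479). The DNAJB9 call was lost within either set (0.91 and 0.41, adjusted p = 0.0503 and 0.482) and without any of 6 alone libraries, hydroxychloroquine replicates 3 and 6 and Vps34 inhibitor replicates 2, 3, 5 and 6 (0.50 to 0.59, adjusted p from 0.0571 to 0.0990), and without the set A library of ravoxertinib with hydroxychloroquine (0.56, adjusted p = 0.0712). Its libraries held 3 to 59 counts in these groups. With AZD0364 or ulixertinib left out of the class, DNAJB9 was at 0.60 and 0.41 and not called (edgeR, adjusted p = 0.0645 and 0.243). PDIA4, a disulfide isomerase, was called in no comparison of all libraries and drugs; in PANC-1 it had 58.2 ± 9.42 CPM with MEK inhibitors (SD, n = 20), against 66.3 ± 12.8 CPM alone (n = 12), a difference of −0.21 (edgeR, adjusted p = 0.0602). Without trametinib that value was −0.24 and called (adjusted p = 0.0402), and without cobimetinib it was −0.23 and called (adjusted p = 0.0499). It was also called without any of 3 libraries left out singly, set A of binimetinib with the Vps34 inhibitor, set B of trametinib with hydroxychloroquine and hydroxychloroquine alone replicate 2 (−0.24 to −0.23, adjusted p from 0.0368 to 0.0460).

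Over the members, ERK inhibitors called 3 higher in AsPC-1 (HERPUD1, DNAJB9 and XBP1) with 13.7% of all genes higher, MEK inhibitors 2 (HERPUD1 and XBP1) with 12.9%, and RAF inhibitors 1 (XBP1) with 3.75%. None fell with ERK or MEK inhibitors in AsPC-1 by edgeR, where 17.4% and 16.1% of genes did; 4 and 2 members had an unadjusted p under 0.05, all of them higher, and DESeq2 called 4 and 2. The median of the 10 members was 0.08, 0.11 and −0.03 for the ERK, MEK and RAF classes in AsPC-1, against −0.06, −0.05 and −0.04 over all genes. In PANC-1 it was 0.06, −0.04 and 0.00, against −0.02, −0.02 and −0.03. Single members carried the calls.

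**Figure D5:**
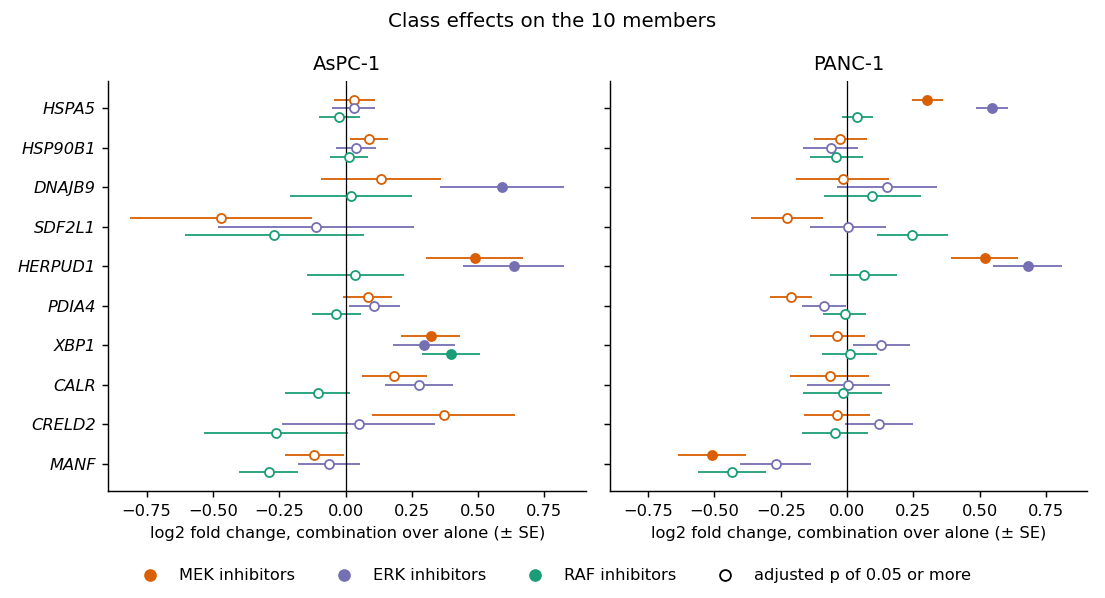
Log2 fold change ± standard error (x axis) of each member (rows) for MEK, ERK and RAF inhibitors against the autophagy inhibitors alone, with AsPC-1 on the left and PANC-1 on the right. Filled points passed an adjusted p of 0.05; HSPA5 is at 0.30 and 0.55 with MEK and ERK inhibitors in PANC-1 and at 0.03 with both in AsPC-1, and XBP1 is filled for all 3 classes in AsPC-1.

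Whether the effect of a class depended on the autophagy inhibitor was tested for each member. In PANC-1, edgeR called 0 of 30 values (smallest adjusted p = 0.713; 3 at an unadjusted p under 0.05; DESeq2 0), with 0.0% of all genes called. HSPA5 came to 0.32 more with the Vps34 inhibitor than with hydroxychloroquine for ERK inhibitors, at an unadjusted p of 0.0105. In AsPC-1, edgeR also called 0 of 30 (smallest adjusted p = 0.502; 4 at an unadjusted p under 0.05; DESeq2 0), with 0.136% of values called over all genes. A difference between the autophagy inhibitors in these responses was not detectable at this depth and number of libraries.

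Beside the members, 9 genes listed for the PERK and ATF4 branch were all tested in both lines. Whether PERK or another signal moved them was not tested. In PANC-1, 7 of 9 rose with ERK inhibitors and 5 with MEK inhibitors, against 5.45% and 7.9% of all genes higher, and none fell in either. With RAF inhibitors edgeR called none (2 at an unadjusted p under 0.05). The median was 0.48 for ERK inhibitors and 0.26 for MEK inhibitors, against −0.02 over all genes. PSAT1, a serine synthesis enzyme, rose by 0.78 ± 0.06 with ERK inhibitors, and CHAC1, which breaks down glutathione, by 0.93 ± 0.10. With MEK inhibitors PSAT1 rose by 0.56 and ASNS, asparagine synthetase, by 0.47. By combination, 8 of the 9 rose with ulixertinib and hydroxychloroquine, 7 with ulixertinib and the Vps34 inhibitor, 7 with trametinib and either autophagy inhibitor, 6 with SCH772984 and the Vps34 inhibitor, 1 with SCH772984 and hydroxychloroquine (1.44% of genes higher), and 0 with binimetinib and the Vps34 inhibitor (3 at an unadjusted p under 0.05). Alone, 6 of the 9 were higher in PANC-1 with the Vps34 inhibitor than with hydroxychloroquine, with a median of 0.92 and with ASNS at 1.73 ± 0.14, whereas none of the 10 members was called there; 1.31% of all genes were higher.

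In AsPC-1 the same 9 genes split. ERK inhibitors raised 3 and lowered 1, with 13.7% of all genes higher and 17.4% lower. MEK inhibitors raised 1, with 12.9% of genes higher. RAF inhibitors raised 4, with 3.75% of genes higher, among them ASNS by 0.95 and PSAT1 by 0.62. Between the autophagy inhibitors alone, the Vps34 inhibitor gave higher levels of 2 and lower levels of 3, with 3.21% of genes higher and 2.72% lower, with ASNS at 0.76 and PPP1R15A, which restores translation, at −1.39. The difference between the lines, AsPC-1 minus PANC-1, was lower for 6 of 9 in the alone comparison, with 1.17% of genes lower, and for 3 of 9 with ERK inhibitors, with 7.49% lower. The line difference of HSPA5 in the alone comparison was 0.45 ± 0.15, of the opposite sign to those 6 genes, and was not called (edgeR, adjusted p = 0.1003).

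Other lists of folding and quality control genes differed in how many genes were called. Of 10 further reticulum chaperones none was called by edgeR in AsPC-1 in the 4 comparisons of classes and of the autophagy inhibitors (unadjusted p under 0.05 for 2 in the alone comparison, 1 with MEK inhibitors and 0 with ERK or RAF inhibitors). In PANC-1, HSPA13 rose with ERK inhibitors by 0.55 ± 0.13, FKBP2 fell by −0.29 there, and DNAJB11, a J-domain helper of HSPA5, fell by −0.27 with MEK inhibitors. DNAJC3 was called in PANC-1 at −1.26 with MEK inhibitors (edgeR, adjusted p = 0.0201) and at −1.28 with ERK inhibitors (adjusted p = 0.0330). Its controls held 1 library, hydroxychloroquine alone replicate 2, with 796 CPM where the median of the group was 29.2 CPM. Without that library DNAJC3 was at 0.01 with MEK and −0.02 with ERK inhibitors, and neither was called (adjusted p = 0.986 and 0.979). Of 10 disulfide isomerases and oxidases, 4 rose with ERK and 3 with MEK inhibitors in AsPC-1, ERP44 by 0.30 and TXNDC11 by 0.41 with ERK inhibitors, and none fell. The shares of all genes higher there were 13.7% and 12.9%. In PANC-1 ERP29 rose by 0.41 with ERK inhibitors and PDIA6 fell by −0.24 with MEK inhibitors. Among all genes of that line, 5.45% rose and 8.68% fell with ERK inhibitors, and 7.9% and 10.6% with MEK inhibitors.

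Of 14 listed genes of degradation from the reticulum 12 were tested. OS9, a lectin that hands misfolded glycoproteins to degradation, rose in PANC-1 by 0.72 with ERK and 0.68 with MEK inhibitors, and DERL2 fell by −0.34 with MEK inhibitors. In AsPC-1 EDEM3 fell by −0.58 and −0.53 in those classes, and UBE2J1 rose by 0.54 with ERK inhibitors. Of 6 sensors and their proteases, ATF6 rose in AsPC-1 by 0.32 with ERK and 0.37 with MEK inhibitors. MBTPS1, which cuts ATF6, rose in PANC-1 by 0.34 and 0.24. At most 2 called genes per list and comparison are named, so others may have been called. Among all genes in AsPC-1, 13.7% rose and 17.4% fell with ERK inhibitors, and 12.9% and 16.1% with MEK inhibitors. In PANC-1 these shares were 5.45% and 8.68% with ERK inhibitors and 7.9% and 10.6% with MEK inhibitors. Of 14 genes of translocation and transport, 2 rose and 3 fell with ERK inhibitors in AsPC-1, close to the 13.7% higher and 17.4% lower among all genes. In PANC-1 2 rose and 2 fell, with 5.45% of genes higher and 8.68% lower.

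Of 10 cytosolic and mitochondrial chaperones, 6 fell with ERK and 6 with MEK inhibitors in AsPC-1 and 4 with RAF inhibitors, with 17.4%, 16.1% and 4.91% of all genes lower. HSPA8, the cytosolic HSP70, fell there by −0.80, −0.64 and −0.34, and HSPD1, the mitochondrial HSP60, by −0.60, −0.46 and −0.22. In PANC-1 2 fell with MEK inhibitors, HSPA8 by −0.16 and DNAJB1 by −0.26, with 10.6% of genes lower, and edgeR called none with ERK inhibitors (1 at an unadjusted p under 0.05). The line difference was lower in AsPC-1 for 6 of 10 in both the ERK and the MEK comparison, with 7.49% and 6.08% of genes lower.

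Over the 30 treatment means of each line, the genes whose log2 levels ran most like HSPA5 in both lines, among 2734 genes of sufficient level, were RIDA (Pearson r 0.64 for AsPC-1 and 0.70 for PANC-1), MICOS13 (0.60 and 0.68), BOLA3 (0.58 and 0.86), ACOT13 (0.62 and 0.57) and RPL12 (0.56 and 0.57). None is a member, but of the other members only CALR, HSP90B1 and PDIA4 had the level to be ranked. HERPUD1 followed HSPA5 in PANC-1 with r of 0.65 and hardly in AsPC-1, where r was 0.06. Over all other members, r with HSPA5 ran from 0.01 (DNAJB9) to 0.52 (SDF2L1) in AsPC-1. In PANC-1 it ran from −0.34 (SDF2L1) to 0.65 (HERPUD1). These points share library sets and the scaling to each library's total, and the values describe these treatments only.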

How the data were processed

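The authors deposited 1 table of counts per gene and library, in whole numbers and not normalised. The submitters' processing notes list kallisto 0.44.0 and GRCh38; the annotation and the step to genes are not stated there. CPM were computed here from the counts, without gene length, so levels are not compared between genes. The 68 libraries of a line entered 1 fit in R 4.3.3, by the robust quasi-likelihood method of edgeR 4.0.16, with TMM factors, a filter on low counts by treatment (filterByExpr), library set as a block and 37 residual degrees of freedom. The titles give the sets, and replicate numbers 1 and 2 of each combination lie in sets A and B. Over 435 pairs of treatments, deviations of libraries in a shared set correlated with a median r of 0.0342 for AsPC-1 libraries and 0.0544 for PANC-1 libraries. The effect of a class is the mean over its drugs and both autophagy inhibitors minus the mean of the alone groups. Line differences came from a joint fit of 13960 genes. Tests are two-sided and adjusted by Benjamini and Hochberg at 0.05 within a comparison. DESeq2 1.42.0, other filters, single sets, each alone library left out, and all combination libraries of 1 replicate number left out together were the alternatives. Added after seeing the data were each drug left out of its class and 19 libraries left out singly with the same genes tested: those of each combination or drug with a called value, and the control library highest in DNAJC3. A value quoted without a set A or set B library is from these single removals, where the lone library left is assumed to vary like the others. No library was left out otherwise and no 2 libraries were identical. The fitting code was also run on simulated counts in the AsPC-1 layout. Those counts had no set effect, and their changes were larger than the members' class values. That run therefore says nothing of smaller changes or of set effects. The members and lists were chosen with earlier results of these data known. Named genes are all members, SPRY4, DUSP6, up to 2 called genes of each other list with the smallest adjusted p in each class or alone comparison, and the 5 genes most like HSPA5 (log2 CPM with a prior count of 2, mean at least 5). Marker genes, members beside HSPA5 in the correlations, and repeat values of a named gene in another comparison were given beside these.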

Additional observations from a re-analysis of the deposited data

Results flagged for a closer look

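In the alone groups of 6 libraries, 5 of 40 gene-by-group sets held 1 library far from the rest by Dixon's criterion, which flags about 1 in 20 groups by chance. HERPUD1 had 37.3 CPM in replicate 3 of the Vps34 inhibitor alone in AsPC-1, with the others at 8.71 to 14.3 CPM. CALR had 644 CPM in replicate 1 of that group, with the others at 188 to 347 CPM. XBP1 had 29.2 CPM in replicate 4 of hydroxychloroquine alone in AsPC-1, with the others at 19.4 to 22.3 CPM. PDIA4 had 98.7 CPM in replicate 5 of hydroxychloroquine alone in PANC-1, with the others at 53.6 to 66.1 CPM. CRELD2 had 18.7 CPM in replicate 2 of the Vps34 inhibitor alone in PANC-1, with the others at 6.23 to 10.6 CPM.

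The lines differed in a test of the difference itself for 2 members. They do not share library sets, so line and set cannot be told apart. For HSPA5 the response to ERK inhibitors, AsPC-1 minus PANC-1, was −0.52 (edgeR, adjusted p = 7.36e-05). For SDF2L1 the Vps34 inhibitor against hydroxychloroquine, AsPC-1 minus PANC-1, was 1.73 (edgeR, adjusted p = 0.0331). Without the library set as a block the SDF2L1 value was 1.66 and not called (adjusted p = 0.106).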

How the results depend on the processing

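Of 34 called member values, 8 were called with the same sign under every alternative run, all HSPA5, and 26 lost the call under at least 1. The 8 are the ERK class, trametinib and SCH772984 with the Vps34 inhibitor, ulixertinib with either autophagy inhibitor, and trametinib and ulixertinib against their classes, all in PANC-1, and the line difference for ERK inhibitors. They faced unequal numbers of alternatives: 36 for the ERK class and 20 for each combination. Each drug against its class faced 10 and the line difference 6, none of them without an alone library. Only the ERK class among them was run within 1 set and with a drug left out. The cause of the losses was not tested. Settings within 1 set or without libraries use fewer samples. CALR with ravoxertinib and hydroxychloroquine in AsPC-1 turned to −0.028 without all set B combination libraries of the line together and was 1.64 without all those of set A. Counts of called members moved as follows. In AsPC-1, ERK higher went from 3 to 1 without the low-count filter, without the replicate block, within set A, and without AZD0364 or ulixertinib. MEK higher went from 2 to 1 without the filter, without the replicate block and without binimetinib or refametinib, and to 0 within set A. RAF higher went from 1 to 0 within set B and without PLX8394. The alone comparison went from 1 higher to 3 by DESeq2 and to 0 within set A and within set B. Single combinations went from 2 higher to 1 without the filter or without the replicate block. In PANC-1, ERK higher went from 2 to 1 within set B, and MEK higher to 1 without trametinib and to 0 within set A and within set B. MEK lower went from 1 to 2 without cobimetinib or trametinib and to 0 within set B, and RAF lower from 0 to 1 without sorafenib. Drugs below their class went from 2 to 1 without the filter, and combinations lower from 2 to 0 without the replicate block. Without that block the line difference between the autophagy inhibitors, which pairs libraries by set, had 0 members higher in place of 1.

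Each alone library was left out singly, and all combination libraries of a line with replicate number 1, or with 2, were left out together, which leaves 1 library a combination that is assumed to vary like the rest. Over these settings the counts ran from 1 to 3 (ERK higher), 0 to 2 (MEK higher), 0 to 1 (RAF higher), 0 to 1 (RAF lower), 1 to 2 (alone higher), 1 to 6 (combinations higher) and 0 to 1 (combinations lower) in AsPC-1. In PANC-1 they ran from 1 to 2 (ERK higher), 1 to 2 (MEK higher), 0 to 2 (MEK lower), 0 to 1 (RAF lower), 2 to 3 (drugs above their class, against 4 with all libraries), 0 to 0 (drugs below their class, against 2), 5 to 10 (combinations higher) and 0 to 4 (combinations lower). The drug-against-class ranges come from the joint removal only. Members with few counts, such as SDF2L1, CRELD2 and DNAJB9 in AsPC-1, are the ones depth limits most.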
